A study of Mus musculus with 8 samples.

Results

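The large subunit of the mitochondrial ribosome was described through the 48 genes on the array whose symbol begins with Mrpl and a number, out of 23978 named genes in all. Each gene was read through 1 probe, the one of its probes with the highest mean log2 processed signal over the 8 arrays, and the 48 genes had 63 probes between them. RNA had been prepared from single cells of the heart tube of mouse embryos at E8.5 with 9 somites, amplified as cDNA, and hybridised to Agilent 1-colour arrays, with 1 cell on each array. The 4 WT cells carried the genotype Mesp1+/+ with Sox17flox/flox, and the 4 KO cells carried Mesp1-Cre on 1 allele together with Sox17flox/flox. Both genotypes thus held the floxed Sox17 alleles, whereas Cre, which is driven by the early mesoderm gene Mesp1, was present only in KO. The comparison addresses whether loss of Sox17 from the mesoderm changes the transcripts of myocardial cells.

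The labels do not say which embryo or litter a cell came from, so each genotype was treated as 1 sample of cells. No test of genotype was made, no p-value is given, and every SD below is the spread between 4 cells. All WT arrays lay on 1 slide with 1 scan time and all KO arrays on another, so that slide, scan and genotype cannot be told apart. In amplified single-cell cDNA a transcript that was not copied and a transcript that was absent cannot be told apart either. The cells matched their label: all 10 myocardial marker genes examined were detected in each of the 8 cells, whereas 0 of 6 erythroid markers were detected in any cell. The authors had assigned the type of each cell by PCR of marker genes, so the myocardial markers are not an independent check. Of 12 endothelial and endocardial markers, 3 to 4 were detected per WT cell and 2 to 5 per KO cell, and Cdh5, Tek, Emcn, Nfatc1, Tal1 and Npr3 were detected in 0 cells; of the endoderm, proepicardium and neural crest lists, each had at most 1 marker detected in a cell. Sox17 was detected in 0 of 8 cells with either of its 2 probes, so its level did not check the genotype labels.

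Mitochondria carry their own ribosomes, which translate the few proteins encoded by mitochondrial DNA, all of them subunits of the respiratory chain and of ATP synthase. The large subunit forms the peptide bond and guides the new chain through an exit tunnel to the inner membrane. Its proteins are encoded in the nucleus, made in the cytosol and imported, some of them relatives of bacterial ribosomal proteins and others found only in mitochondria. The heart depends on the respiratory chain, and the embryonic myocardium increases its use of it as it matures.

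Transcripts of the large subunit were present in every cell, but each cell showed its own selection of them. Detection here means a probe signal that the scanner software found well above background. WT cells 1 to 4 had 26, 33, 39 and 39 of the 48 genes detected, and KO cells 1 to 4 had 26, 27, 26 and 32. The mean was 34.25 ± 6.18 genes in WT and 27.75 ± 2.87 in KO (SD, n = 4 cells each), a difference of -6.5 genes. The difference was -3.5 when positive and significant signal, a laxer flag of the software, counted as detection. The genotypes overlapped, since WT cell 1 had as few genes as the lowest KO cells. The shares ran from 54.2% (exact 95% binomial interval 39.2 to 68.6%, counting error over genes only) to 81.3% (67.4 to 91.1%). Over all named genes the share detected was likewise lower on average in KO, at 26.8% ± 3.97 in WT and 22.4% ± 4.01 in KO.

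The order of the cells was not that of all genes. KO cell 1 had 27.7% of all named genes detected, above WT cells 1 and 2 at 22.0% and 25.3%, but only 26 large-subunit genes, as few as any other cell. WT cells 3 and 4, with 30.9% and 29.1% of all genes, also had the most large-subunit genes. The small subunit, the partner that reads the messenger RNA, gave 13, 17, 23 and 25 of its 29 Mrps genes across WT cells 1 to 4, against 12, 16, 15 and 19 across KO cells 1 to 4. The cytosolic ribosome differed from both mitochondrial subunits: 45 to 46 of the 49 Rpl genes of its large subunit were detected in every cell.

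**Figure D1:**
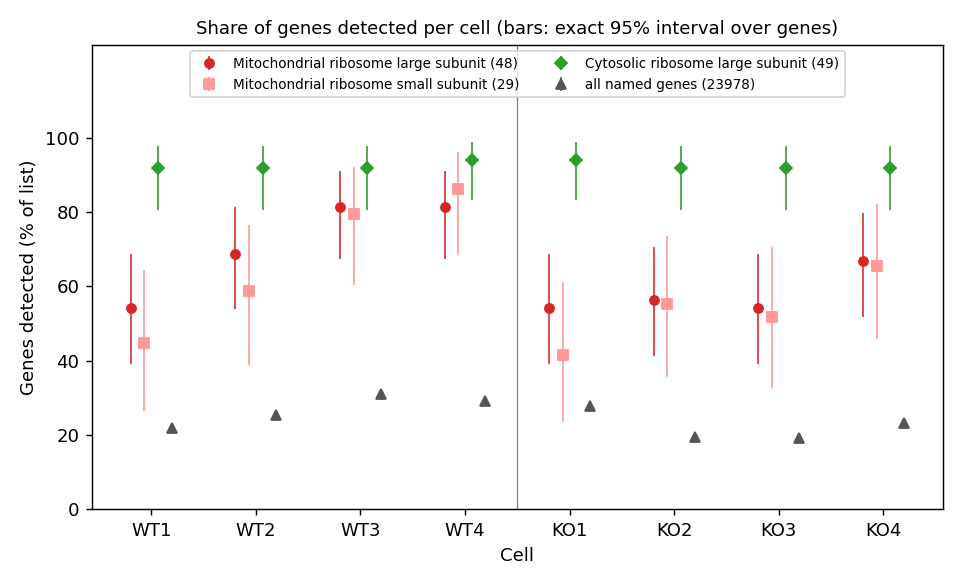
Share of genes detected in each cell (y axis, percent of the list) for the mitochondrial large and small subunits, the cytosolic large subunit and all named genes, with exact 95% binomial intervals over genes as bars. The mitochondrial large subunit ranged from 54.2% to 81.3% with overlapping genotypes, and the cytosolic large subunit stayed between 91.8% and 93.9%.

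Few members were detected throughout. The number of cells with detection was 8 for 7 genes, 7 for 7 genes, 6 for 7 genes, 5 for 11 genes and 4 for 7 genes, and it was 1 to 3 for 8 genes. Mrpl21 was the only member detected in 0 cells. By comparison, 44 of the 49 Rpl genes were detected in all 8 cells, that is 89.8% against 14.6% of the Mrpl genes and 4 of the 29 Mrps genes. Over all named genes this share was 9.44% (2263 of 23978). Among genes detected in at least 1 cell it was 18.2% of all named genes and 14.9% of the members. Counted gene by gene, 25 members were detected in more WT than KO cells, 8 in more KO cells and 15 in as many of each. All named genes leaned the same way, with 5450 in more WT cells, 2802 in more KO cells and 15726 in as many of each.

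Levels are given below as log2 of the processed signal after the arrays were scaled to a common 50th percentile. Signals under 50 were set to 50, so that 5.64 is the floor, and values at the floor have no order. A level of one gene is not compared with that of another, since each probe has its own response. Of the 384 values of 48 genes in 8 cells, 162 (42.2%) were at the floor, and 26 of these were called detected although their scaled signal was no higher than 50. Of the 222 values above the floor, 169 (76.1%) were over 9. A total of 40 genes had at least 1 cell at the floor together with at least 1 cell over 9, and this was so for 24 genes within WT and for 33 within KO. The same count was not made over all named genes. Over the members detected in at least 1 cell, the median SD between cells was 2.24 in WT and 3.04 in KO, against 0.67 and 0.72 for the Rpl genes chosen in the same way. Of the 49 Rpl genes, 44 were detected in all 8 cells. Over all named genes detected in at least 1 cell the medians were 0.77 and 0.22, and 3554 of these genes were detected in only 1 cell. How far the spread depends on detection was not tested.

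Repeated spots showed how much spread arose between spots of the same array. The probe of Mrpl34, a small protein with a bacterial relative, was printed 10 times. Its spots had SDs of 0.035 to 0.069 in the 7 cells where it was detected, while its mean ranged over these cells from 7.94 in WT cell 2 to 13.01 in WT cell 1. Mrpl50 was also printed 10 times. Its spots had SDs of 0.041 and 0.062 in WT cells 2 and 4, and of 0.175 in WT cell 3, where it was detected but at the floor. The median SD over the spots of all 399 probes printed 10 times was 0.072. The spread between cells was therefore far above the spread between spots, which does not separate amplification, labelling or hybridisation from the content of the cell.

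**Figure D2:**
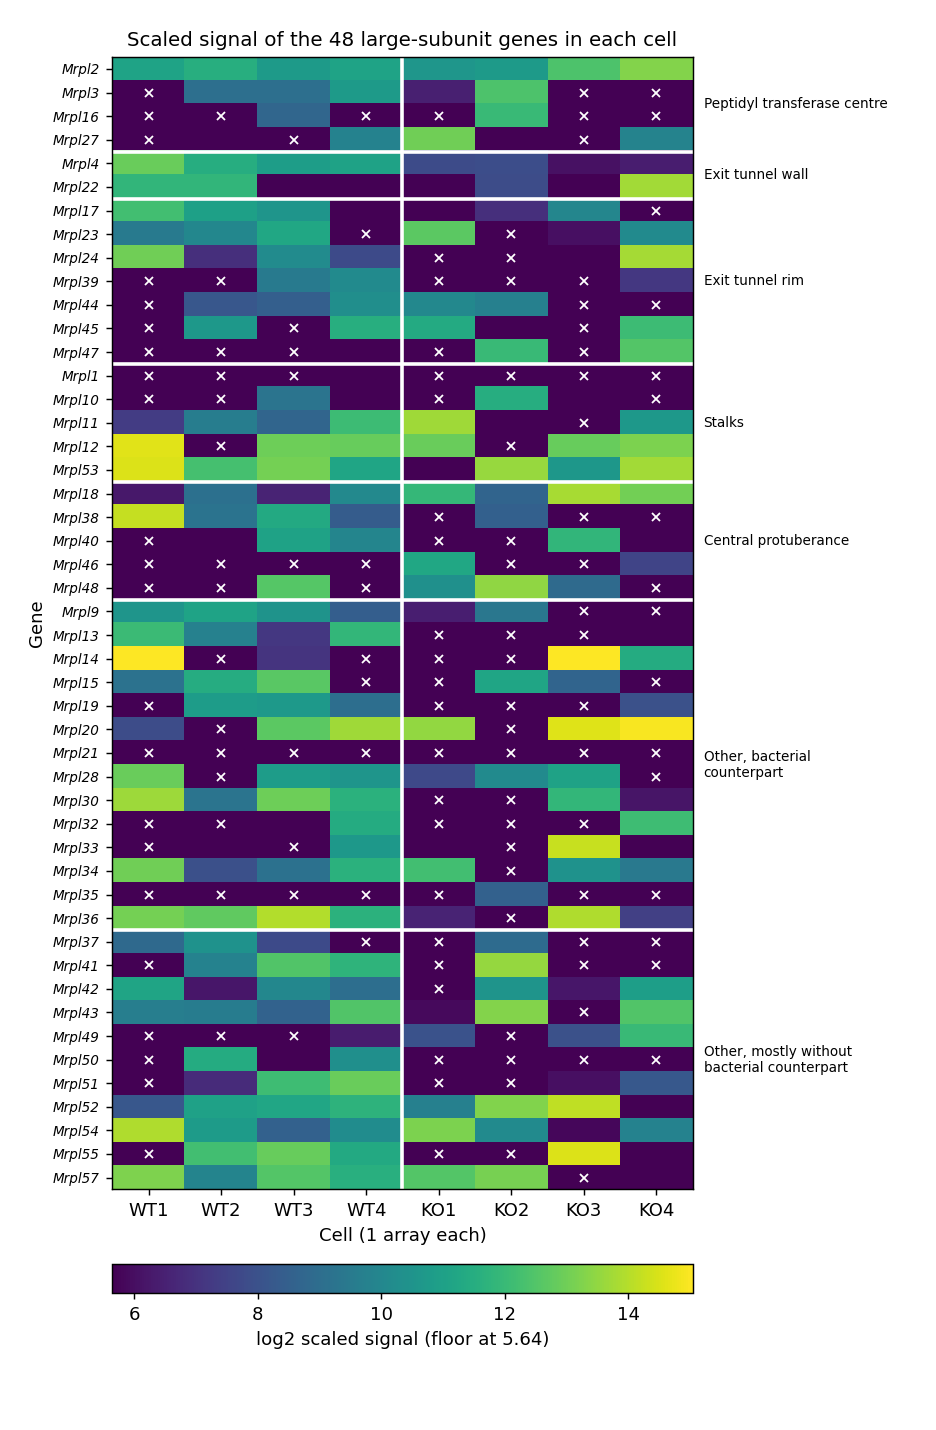
Scaled signal of all 48 genes (rows, grouped by the place of the protein in the subunit) in the 8 cells (columns), on a log2 colour scale from the floor at 5.64, with a white cross where the gene was not detected. Dark and bright fields alternate along most rows in both genotypes: 40 genes had a cell at the floor and another over 9.

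Taken over all 48 genes, the level was lower in KO. The median difference, KO minus WT, was -0.77 on the log2 scale, with 30 genes lower, 16 higher and 2 at the floor in all cells (Mrpl1 and Mrpl21). Over all named genes the median was 0.00, since 14810 of them had equal means, mostly at the floor, and the mean difference was -0.14 against -0.83 for the members. That all-gene mean includes 11528 genes detected in 0 cells, as against 1 of the members. Among genes detected in at least 1 cell the median was 0.00 for all named genes and -0.78 for the members. Over all its genes the small subunit had a median of -0.54, and the cytosolic large subunit had one of 0.07. The mean level of the 48 genes in a cell, relative to the mean of the 8 cells, was 0.30, -0.12, 0.76 and 0.72 in WT cells 1 to 4. It was -0.73, -0.35, -0.45 and -0.11 in KO cells 1 to 4. WT cell 2 lay just below KO cell 4, and the other WT cells were higher than any KO cell. The genotype means of 0.41 ± 0.42 and -0.41 ± 0.26 (SD, n = 4) were further apart than either SD. The median was -0.49 without WT cell 4 and -1.59 with no floor.

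Part of this difference came from genes already picked out on these same arrays. Mrpl4, Mrpl9, Mrpl13, Mrpl30, Mrpl36 and Mrpl38 had been named by the study as lower in mutant cardiomyocytes, and Mrpl18 stood on its list of raised genes, so that none of them is independent evidence of a direction. Without the 6 lower genes, the median of the other 42 was -0.50. The cell means were then 0.16 ± 0.51 in WT and -0.16 ± 0.33 in KO, a difference of -0.33 that was smaller than the SD in WT.

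The fixed rule of size, at least 5-fold between genotype means (2.32 on the log2 scale), was applied to genes that every cell of WT, or every cell of KO, had detected. This filter passed 19 members, 7 of them through both genotypes, 12 through WT only and 0 through KO only. Over all named genes it passed 3469, of which 885 passed through WT only and 321 through KO only. A gene that passes through WT only is one that was detected less often in KO, so the counts that follow are descriptions. Of the 19 members 8 were at least 5-fold lower in KO (42.1%), where the share of all genes that passed was 10.4%, and 1 was at least 5-fold higher (5.26%), where that share was 2.62%. Of these 8 lower genes only Mrpl4 passed through both genotypes, and the others passed through WT only, where they were high. Their share is thus tied to the filter and is no support for a lower level of the members. Among the 13 that passed and had not been named by the study as lower, 2 were lower (15.4%). Among the 47 members detected in at least 1 cell, 12 were at least 5-fold lower (25.5%), where the share of the 12450 genes detected in at least 1 cell was 6.1%, and 3 were at least 5-fold higher (6.38%), where that share was 1.61%. The 4 lower genes that this added were Mrpl19, Mrpl50, Mrpl51 and Mrpl55, and the 2 higher ones were Mrpl47 and Mrpl49, all named here after their values were seen. The 12 lower genes include the 6 that the study had named as lower. Of the 12450 genes 3554 were detected in only 1 cell, as against 2 of the members, so these shares compare unlike sets.

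The lowest WT cell was higher than the highest KO cell for 2 of the 19 members, Mrpl4 and Mrpl13, where the share over all genes that passed was 3.17% (110 of 3469). The opposite order was found for 0 members, where the share over all genes was 2.42%. The other 6 of the 8 lower genes had at least 1 KO cell above the lowest WT cell. Without WT cell 4 the number with all WT cells higher was 5, and without KO cell 2 or KO cell 3 it was 4. Fewer cells make such an order easier to reach. The share over all genes was not computed for these settings.

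Mrpl4, whose bacterial relative lines the exit tunnel, was lower in KO by more than either SD. Its levels were 12.90, 11.49, 10.87 and 11.07 across WT cells 1 to 4, against 7.79, 7.87, 6.06 and 6.40 across KO cells 1 to 4. Detection held in 8 of 8 cells, and its difference of -4.55 was larger than the SD of 0.92 in WT and of 0.93 in KO. Mrpl4 was also measured by a second probe, 230 bases nearer the start of its transcript, which gave a difference of -4.73, with detection in 4 WT cells but only 1 KO cell. The last 30 bases of both probes are shown because the chosen probe holds AATAAA, in capitals, the letters of a polyadenylation signal. Oligo(dT)-primed single-cell cDNA favours the 3′ end of a transcript. Whether these letters act as a signal and place the probe at that end was not checked. The chosen probe lies at chr9:20813220-20813279 (mm9, + strand, as given in the files), and exon and UTR annotation was not used here.
Mrpl4, chosen probe: aaaAATAAAccctatttttcacaagacttg
Mrpl4, probe nearer the start: ctggcaggactcaagatacactccgctcta

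Mrpl22, the other protein of the tunnel wall, was detected in 8 of 8 cells as well. It differed by -0.53, less than its SD of 3.58 in WT and 3.82 in KO, and 4 of its cells were at the floor.

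Of the proteins at the rim of the tunnel and on the membrane side, Mrpl17 passed the rule of size. Its levels were 12.19, 10.97, 10.53 and 5.64 across WT cells 1 to 4, against 5.64, 6.91, 9.96 and 5.64 across KO cells 1 to 4. The difference of -2.80 was smaller than the SD of 2.88 in WT, and WT cell 4, detected but at the floor, lay below 2 KO cells. Without WT cell 1 the difference was -2.01, under 5-fold. The other 6 rim genes, among them Mrpl45, which tethers the ribosome to the inner membrane, were detected in 3 to 6 cells and differed by -1.79 (Mrpl24) to 3.32 (Mrpl47).

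Around the peptidyl transferase centre, Mrpl2, which helps hold the catalytic RNA, was detected throughout. Its levels were 11.11, 11.54, 10.75 and 11.08 across WT cells 1 to 4, against 10.58, 10.78, 12.40 and 13.29 across KO cells 1 to 4. KO cells lay on both sides of the WT range, and the difference of 0.64 was smaller than the SD of 1.31 in KO. Mrpl3, Mrpl16 and Mrpl27, which surround the same centre, were detected in 2 to 5 cells and differed by -1.10 to 1.85. This group had 10 of 16 gene and cell pairs detected in each genotype.

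Of the stalks, the one that holds Mrpl12 receives the elongation factors. Mrpl12, the stalk protein that contacts these factors, was either high or at the floor: 14.61, 5.64, 12.97 and 12.85 across WT cells 1 to 4, against 12.89, 5.64, 12.87 and 13.20 across KO cells 1 to 4. WT cell 2 and KO cell 2 lacked the signal, the remaining cells of both genotypes shared a range, and the means differed by -0.37, or by 1.47 without KO cell 2 and -2.33 without WT cell 2. Mrpl53, at the base of the stalk, read 14.54, 12.27, 13.07 and 11.16 in WT and 5.64, 13.58, 10.62 and 13.74 in KO. Its difference of -1.87 was smaller than the SD of 3.78 in KO and rested on KO cell 1, without which it was -0.12. Mrpl1, Mrpl10 and Mrpl11 differed by -0.53 to 0.56, with detection in 1 to 7 cells.

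The central protuberance, in which a mitochondrial tRNA takes the place of the bacterial 5S RNA, held members of opposite direction. Mrpl18, a relative of a bacterial 5S RNA binding protein, was the only member detected throughout that passed the rule upwards. Its levels were 6.24, 9.11, 6.58 and 10.06 across WT cells 1 to 4, against 11.90, 8.66, 13.81 and 13.05 across KO cells 1 to 4. KO cell 2 lay within the WT range and the other KO cells above it, and the difference of 3.86 exceeded the SD of 1.88 in WT and of 2.27 in KO. Mrpl38, found only in mitochondrial ribosomes, read 14.21, 9.24, 11.35 and 8.40 in WT and 5.64, 8.53, 5.64 and 5.64 in KO. Of the KO cells only cell 2 had it detected, at a level above WT cell 4, and the difference was -4.43 with SDs of 2.59 and 1.44. Mrpl40, Mrpl46 and Mrpl48 were detected in 2 to 5 cells and differed by -0.87 to 2.23. Mrpl46, with 2 KO and 0 WT cells detected, was 3.67-fold higher in KO with the other cells set to the floor.

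**Figure D3:**
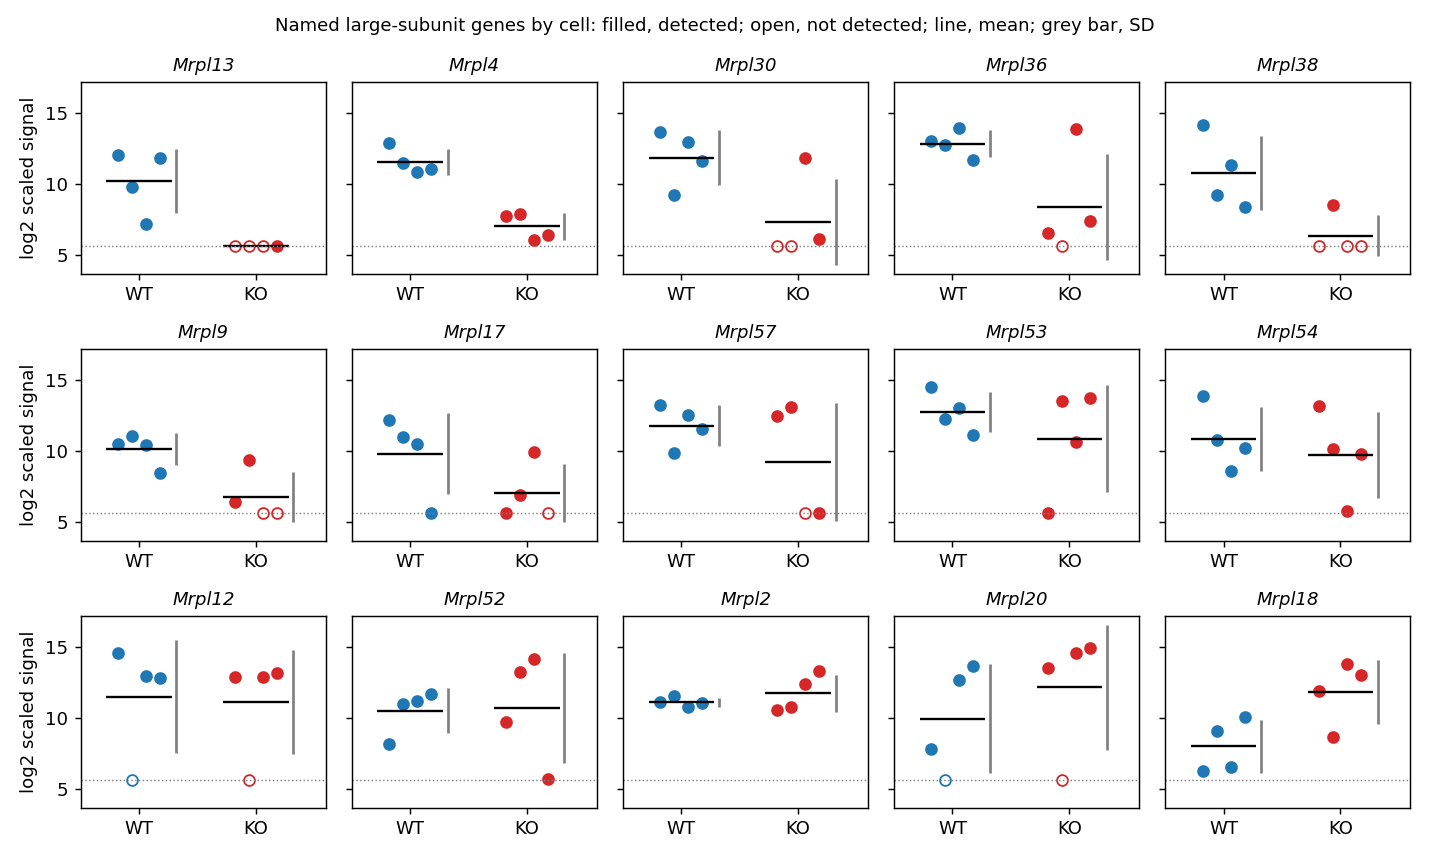
Log2 scaled signal of the 15 named genes in each of 4 WT and 4 KO cells (filled points detected, open points not detected), with the mean as a line, the SD between cells as a grey bar and the floor as a dotted line. Only for Mrpl13 and Mrpl4 did all WT points lie above all KO points, and several genes, such as Mrpl36 and Mrpl57, had KO cells both at the WT level and near the floor.

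The other proteins with a bacterial relative held 4 of the 8 lower genes. Mrpl13 read 12.06, 9.79, 7.18 and 11.88 in WT cells 1 to 4 and was at the floor in all KO cells, with detection in 1 of them. Its difference of -4.58 is set in part by the floor, and the SD was 2.28 in WT. Mrpl36, the relative of a very small zinc-binding bacterial protein, read 13.08, 12.76, 13.96 and 11.69 in WT and 6.58, 5.64, 13.91 and 7.42 in KO. KO cell 3 reached the WT range and the other KO cells lay below it, which gave a difference of -4.49 with SDs of 0.94 and 3.75. Mrpl9 read 10.54, 11.08, 10.47 and 8.47 in WT and 6.44, 9.38, 5.64 and 5.64 in KO. KO cell 2 lay above WT cell 4, and the difference was -3.36 with SDs of 1.15 and 1.77. The second Mrpl9 probe was detected in 0 cells, and the mean of both probes differed by -1.68. Its listed start in the transcript was 319 bases before that of the chosen probe. On the chromosome (mm9, + strand) it was placed further along, at 94254157 against 94252112. The order of both probes along the transcript is therefore not settled.

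Mrpl30 read 13.66, 9.26, 12.95 and 11.64 across WT cells 1 to 4, against 5.64, 5.64, 11.87 and 6.16 across KO cells 1 to 4. KO cell 3 lay within the WT range, and the difference was -4.55 with SDs of 1.94 and 3.04. The files place this probe on chromosome 11, at chr11:3370827-3370886 (mm9), whereas the RefSeq gene table (GRCm38.p6) has the gene on chromosome 1. The other Mrpl30 probe is placed on chromosome 1 and read 5.64, 9.17, 12.99 and 11.79 in WT and 5.64, 5.64, 11.49 and 5.95 in KO. Both probes lay within 0.5 of each other in 7 of 8 cells and parted in WT cell 1, where the probe on chromosome 1 was at the floor, so that its difference was -2.72. The last 30 bases of both are shown because they read different placements under 1 gene name. Capitals mark ATTAAA, the letters of a polyadenylation signal, whose use was not checked.
Mrpl30, chosen probe: cATTAAAgtgtatgttcatccagtcaaaaa
Mrpl30, probe on chromosome 1: acacttgatacgcatccagcctctgaagct

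Mrpl20, the remaining named gene with a bacterial relative, read 7.84, 5.64, 12.68 and 13.69 in WT and 13.53, 5.64, 14.59 and 14.96 in KO. Cell 2 of each genotype was at the floor, and the difference of 2.22 was smaller than either SD, 3.85 in WT and 4.40 in KO. It was 0.78 without WT cell 2 and 4.39 without KO cell 2. The other Mrpl20 probe was at the floor in all 8 cells, and the mean of both probes differed by 1.11. The other 9 genes of this group were detected in 0 to 7 cells and differed by -2.83 (Mrpl19) to 1.08 (Mrpl14). As a group of 14 genes, they had 38 of 56 gene and cell pairs detected in WT and 27 in KO, with a median difference of -1.17.

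Among the proteins that mostly have no bacterial relative, Mrpl57 passed the rule of size. It read 13.23, 9.89, 12.54 and 11.56 across WT cells 1 to 4, against 12.51, 13.11, 5.64 and 5.64 across KO cells 1 to 4. KO cells 1 and 2 were at the WT level and KO cells 3 and 4 at the floor, so that the difference of -2.58 was smaller than the SD of 4.14 in KO. It was under 5-fold without WT cell 1 (-2.11) and without KO cell 3 or KO cell 4 (-1.39 each), and it was -3.87 without KO cell 2. Mrpl52 and Mrpl54 had detected signals over the floor in 8 of 8 cells. Mrpl52 read 8.19, 11.03, 11.20 and 11.70 in WT and 9.75, 13.27, 14.15 and 5.67 in KO, a difference of 0.18 with an SD of 3.86 in KO, which ran from -0.96 without KO cell 3 to 1.86 without KO cell 4. Mrpl54 read 13.93, 10.81, 8.57 and 10.20 in WT and 13.19, 10.14, 5.81 and 9.80 in KO, a difference of -1.14 with SDs of 2.24 and 3.03, which was 0.16 without KO cell 3 and -0.13 without WT cell 1. Neither gene separated the genotypes. The other 8 genes of this group were detected in 3 to 7 cells and differed by -2.98 (Mrpl51) to 2.59 (Mrpl49). Mrpl50, with 3 WT and 0 KO cells detected, was 6.12-fold higher in WT with values under the floor set to it. Over the 11 genes, 36 of 44 gene and cell pairs were detected in WT and 26 in KO, and the median difference was -1.71, with 9 genes lower and 2 higher.

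**Figure D4:**
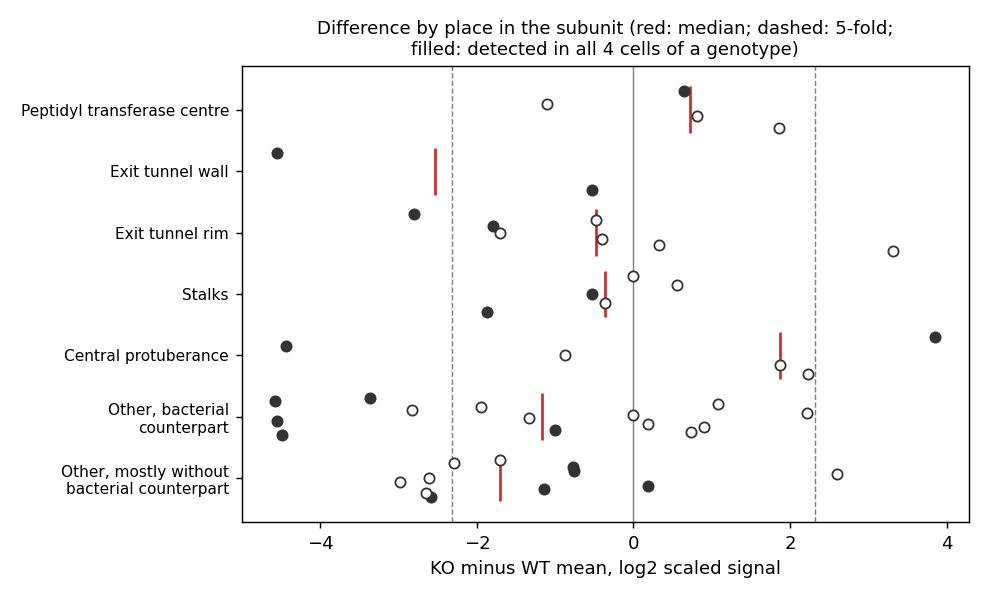
KO minus WT difference of the mean log2 scaled signal (x axis) for each of the 48 genes, by the place of the protein in the subunit, with the group median in red, dashed lines at 5-fold, and filled points for genes detected in all 4 cells of a genotype. The medians were -1.17 and -1.71 in the bottom 2 groups, 0.72 around the peptidyl transferase centre and 1.88 in the central protuberance, and every group with more than 2 genes spread over both sides of 0. Around the peptidyl transferase centre 1 of 4 points is filled, and in the central protuberance 2 of 5. The median of 1.88 is the value of Mrpl46, detected in 2 KO and 0 WT cells.

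Genes that act with the large subunit were read for comparison. Of 4 further large-subunit proteins listed under other names, 2 passed the filter: Ict1, a peptidyl-tRNA hydrolase built into the subunit, was lower by the rule of size with a difference of -2.75 (SD 3.96 in WT), and Gadd45gip1 was higher with 2.65 (SD 2.92 in KO). Of 21 genes of mitochondrial ribosome assembly, 2 passed the filter and 1 was lower by the rule of size, the RNA helicase Dhx30, with a difference of -2.35, an SD of 3.92 in KO and 1 KO cell, at 13.48, above all WT cells. Of 15 mitochondrial translation factors, 5 passed and 1 was lower, Oxa1l, which inserts newly made mitochondrial proteins into the inner membrane. Oxa1l read 13.50, 12.27, 10.96 and 10.98 across WT cells 1 to 4, against 5.64, 7.14, 5.64 and 5.64 across KO cells 1 to 4, so that each WT level was higher than every KO level. Its difference was -5.91 with SDs of 1.22 and 0.75, and the study had named it as well. Of 5 genes of mitochondrial transcription, 0 passed the filter.

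For 15 members a pair of probes allowed each reading to be repeated in the same cell, although both probes lay on the chromosome of the gene for only 11 of them. Both probes gave the same call in 79 of 120 gene and cell pairs (65.8%). They were both at the floor in 53 pairs and both above it in 34, where they differed by a median of 0.74 on the log2 scale. In 21 pairs 1 probe was at the floor and the other over 9, the one nearer the transcript start at the floor in 12 and the one nearer the end in 9. The order of the probes here follows their listed start in the transcript. Mrpl9 gave 4 of the 12, and by position on the chromosome its probes stand in the opposite order. The KO minus WT difference had the same sign at both probes for 9 genes and opposite signs for 2, Mrpl10 and Mrpl22, the latter with its other probe placed on chromosome 14, and for 4 genes 1 probe gave 0. The probes of Mrpl40 start 8 bases apart and gave the same call in 8 of 8 cells with differences of -0.87 and -0.88. Those of Mrpl43 start 140 bases apart, and they too gave the same call in 8 of 8 cells, with differences of -0.53 and -0.77. The Mrpl40 probes are shown because their shared stretch, with AATAAA in capitals, shows how closely they overlap.
Mrpl40, chosen probe: tgagtcatcctaggaacaAATAAAgggtaa
Mrpl40, other probe: cctaggaacaAATAAAgggtaatcaagagt

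**Figure D5:**
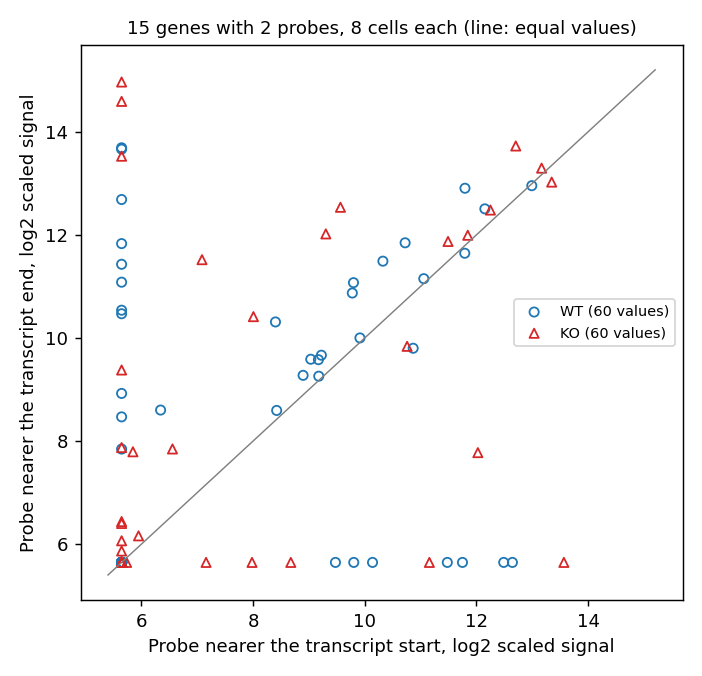
Log2 scaled signal of the probe nearer the transcript end (y axis) against the probe nearer the start (x axis) for the 15 genes with 2 probes, with 60 values from WT cells and 60 from KO cells and a line of equal values. The order of the probes follows their listed start in the transcript, which for Mrpl9 is opposite to their order on the chromosome. Points along the axes at 5.64 are readings in which 1 probe was at the floor, and 21 of the 120 lay there with the other probe over 9.

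The positions of the probes were compared as well. AATAAA or ATTAAA was found on the printed strand of 13 of the 48 chosen member probes (27.1%), against 18.6% of the chosen probes of all named genes. The 13 probes were detected in a median of 6 cells and the others in a median of 5, and their median differences were -0.47 and -1.10; whether position affects the values was not tested. Of the 11 genes with both probes on the chromosome of the gene, the probe nearer the end was detected in more cells for 5, the probe nearer the start for 3, and 3 had equal numbers. The 5 include Mrpl9, whose probes stand in the opposite order by position on the chromosome, so these counts show no clear lean to either end. The files place the chosen probe of 4 members, Mrpl15, Mrpl23, Mrpl30 and Mrpl48, on another chromosome than the RefSeq gene table does. Without these 4 the median difference was -0.77, and 7 of 18 members that passed the filter were at least 5-fold lower.

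The promoters of the members were searched for 3 motifs of factors that are known to act on nuclear genes of mitochondria, namely NRF1, ETS-type factors such as GABPA, and YY1. RefSeq promoters (GRCm38, 250 bases before to 50 after the start) were at hand for 42 members and for 27025 genes in all, and both strands were searched. The NRF1 motif, GCGCA followed by its reverse complement, was found in 3 member promoters (7.14%), Mrpl9, Mrpl32 and Mrpl39, against 1.07% of all promoters. The ETS motif CCGGAAG was found in 14 (33.3%), against 9.93%, and the YY1 motif AAGATGG in 7 (16.7%), against 7.28%. A match is a description of these letters and not a measured site. The ETS motif occurred in the promoters of Mrpl17 and Mrpl57, both lower by the rule of size, of Mrpl18, which was higher, and of Mrpl52 and Mrpl53. Of the 14 members with it, 8 were lower in KO, 5 higher and 1 at the floor in all cells, and of the 28 without it 16 were lower, 11 higher and 1 at the floor in all cells. Of the 3 members with the NRF1 motif 2 were lower and 1 higher, and of the 7 with the YY1 motif 3 were lower and 4 higher. A short window is shown as 1 example of each motif, which ties no motif to a direction, with the motif in capitals: Mrpl9 at chr3:94443298-94443327 (+ strand), Mrpl36 at chr13:73330970-73330996 (+ strand), and Mrpl18 at chr17:12916315-12916341 (− strand).
Mrpl9, NRF1 motif: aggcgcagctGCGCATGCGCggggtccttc
Mrpl36, YY1 motif on the opposite strand: tgaccttacgCCATCTTtcttcctggc
Mrpl18, ETS motif: actgaaaacgCCGGAAGtagggggctg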

How the data were processed

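Each single cell had 1 deposited file, the scanner output of Agilent Feature Extraction 12.0.2.2 per the file headers. The intensity values used were the processed signals as deposited, already corrected for background by the software, with its flags for detection and for outlier spots. The mean spot and median background intensity values, also as deposited, served for the alternative correction. Cells were grouped by their titles into 4 WT and 4 KO. The authors state that levels under 50 were set to 50 and that chips were normalized on the 50th percentile.

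Spots that the software marked as outliers (146 to 220 on each array) and control spots were removed, 0 spots were saturated, and repeated spots were averaged on the log2 scale, giving 55681 probes. Each array was shifted by -0.76 to 0.68 so that the 50th percentile of the 5301 probes detected on all 8 arrays was equal, and a floor of 50 was then set. Of 308 negative control spots, 0 to 4 per array were well above background. The number of arrays limits the precision.

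The members, the lists and the alternatives were chosen with earlier results of these data known. Members were named with values if at least 5-fold different with detection in each of the 4 cells of WT or of KO, if detected over the floor in 8 of 8 cells, if named by the study (6 as lower, and Mrpl18), or if among the 5 of highest mean level. The calculations were checked on simulated arrays and run in Python 3.11.15 with pandas 2.3.3, and in R 4.3.3 with limma 3.58.1 for normexp (offset 50). Promoter sequences are from RefSeq (GRCm38). Protein sequences were not used here.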

Additional observations from a re-analysis of the deposited data

Results flagged for a closer look

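Of 34 groups of 4 cells (17 measures in each genotype), 5 had 1 cell whose gap to the nearest other cell took up more of the group's range than Dixon's 95% limit, which chance gives for about 1 in 20 groups of freely varying values. That rate does not hold for groups with cells at the floor, since 3 cells at the floor and 1 above it always pass the limit. All 5 were KO groups. The number of members detected was highest in KO cell 4, at 32, against 26, 27 and 26 in the other KO cells. Mrpl12 was lowest in KO cell 2, at 5.64 (the floor), and so was Mrpl20, at 5.64, whereas the other KO cells were over 12 for both. Mrpl30 was highest in KO cell 3, at 11.87. Mrpl38 was highest in KO cell 2, at 8.53, with the other KO cells at the floor.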

How the results depend on the processing

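The median difference of the members kept its direction under the alternatives tried; it was -1.59 with no floor and, apart from leaving out cells, otherwise ran from -1.10 to -0.50. The mean member level differed by -1.31 with no floor and by -0.33 without the genes the study named as lower. The number of members at least 5-fold lower was 1 among genes detected in all 8 cells and 2 without the genes the study named. It was 12 both without a filter on detection and with detection in 3 of 4 cells of a genotype. At least 5-fold higher were 2 members with detection in 3 of 4 cells and 3 with no filter. WT cells above all KO cells held for 1 member among genes detected in all 8 cells. With 1 cell left out and the passing genes kept, the median was lowest without KO cell 4 (-1.08) and highest without WT cell 4 (-0.49), and the mean level ran from -1.01 to -0.71. The members detected differed by -9.25 to -4.92, the lower count was 6 to 10 and the higher count 1 in each case. Members with WT above KO numbered 2 to 5 (5 without WT cell 4, 4 without KO cell 2 or KO cell 3), and those with KO above WT 0 to 1 (1 without KO cell 2). Such an order is easier to reach with a cell left out, and its share over all genes was not computed there.

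Mrpl17 fell under 5-fold without WT cell 1 (-2.01), and Mrpl57 without WT cell 1 (-2.11), KO cell 3 or KO cell 4 (-1.39 each). Mrpl9 was at -1.68 with the mean of its probes. With no floor Mrpl13 was at -8.31 and Mrpl38 at -7.34. Calling by positive and significant signal gave a difference of -3.5 members detected. Mrpl12, Mrpl52 and Mrpl54, whose differences were within their SDs, changed sign when certain single cells were left out, and Mrpl52 also on the 50th percentile over all probes (-0.12) and with quantile normalization (-0.08). The causes were not tested. No paired analysis was possible because replicate numbers only name the cells and nothing was tested. The setting without members whose probe is placed on another chromosome was chosen after seeing the data. Signals near the floor limit every difference that involves them.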
